A study of Mus musculus with 16 samples.

Results

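Interferon-stimulated genes were described in the RNA and in its N6-methyladenosine (m6A, adenosine inside an RNA that carries a methyl mark) of bone from wild type mice. The module was a list of 46 genes taken by symbol from the table of RNA comparisons, which held 25239 genes, and the 68 m6A peaks named for them among 13083 peaks. All 46 symbols were found, each once. One arm had been ovariectomised, which removes the ovarian source of estrogen and is a model of postmenopausal bone loss, and the other had a sham operation. There were 4 input libraries and 4 immunoprecipitated (IP) libraries in each arm, titled OVX and NC. Input libraries hold fragmented RNA as it was, and IP libraries hold what an m6A antibody enriched from it. The treatment field of all 8 IP libraries reads ovariectomy, which contradicts the 4 titled NC, and titles were used for the arm. Age, strain, the time after surgery and whether each library came from its own animal were not given in the sources used here, so the spread behind the p-values may be technical.

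Both tables hold the authors' comparisons and no value of a single library, so neither arm's own level can be given. A level below is therefore the mean over the libraries of counts divided by size factors, called the mean count, and a difference is a log2 fold change, given ± its standard error (SE). Neither table states which arm is the numerator. Signs are therefore kept as the tables have them, and the sign of the RNA table need not mean the same arm as that of the peak table. A gene was called when its deposited adjusted p was under 0.05.

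Type I interferons bind the receptor Ifnar1 and Ifnar2, whose kinases Jak1 and Tyk2 phosphorylate Stat2 and other STAT proteins. Stat2 joins Irf9 in a transcription factor complex that binds the interferon-stimulated response element (ISRE) in the promoters of antiviral genes. Interferon gamma acts through Ifngr1 and Ifngr2 and another element, GAS, and induces Irf1 and many immunity GTPases. In bone, interferons are known to restrain osteoclast formation, and in marrow they act on blood stem cells and B cell precursors.

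The libraries held markers of bone and also of marrow and muscle. By the authors' deposited table, the bone matrix gene Col1a1 had a mean count of 99868, the osteoclast protease Ctsk 12681 and the osteocyte gene Sost 2792. The neutrophil gene S100a9 stood at 225725 and the fast muscle myosin Myh4 at 336368 per the authors' deposited table. Mean counts of all genes summed to 43717045, of which the 46 members took 0.253%.

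The interferon-stimulated genes were almost all positive. A positive fold change was given to 43 of 46 members by the authors' deposited table, against 46.7% of the 15396 tested genes, and 3 had a negative one. All 46 had an adjusted p there. Of them 23 were called, all positive, while 6.07% of tested genes were called positive and 6.11% negative. Among the 12408 tested genes with mean counts within the members' range of 82.9 to 12405, 7.02% were called positive per the authors' deposited table. The median fold change of the members was 0.54, against -0.02 over all tested genes, with a range of -0.29 to 1.54. With no adjustment, 30 members had a positive change at p under 0.05 per the authors' deposited table, against 12.1% of tested genes. At a fold change of at least 0.5 as well as the adjusted threshold, 19 members were called, against 2.25% of tested genes. The list was chosen with earlier results of these data known, so these counts describe it and are no independent evidence of its direction. These are bulk samples, in which fewer cells of a type and less RNA per cell cannot be told apart.

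**Figure D1:**
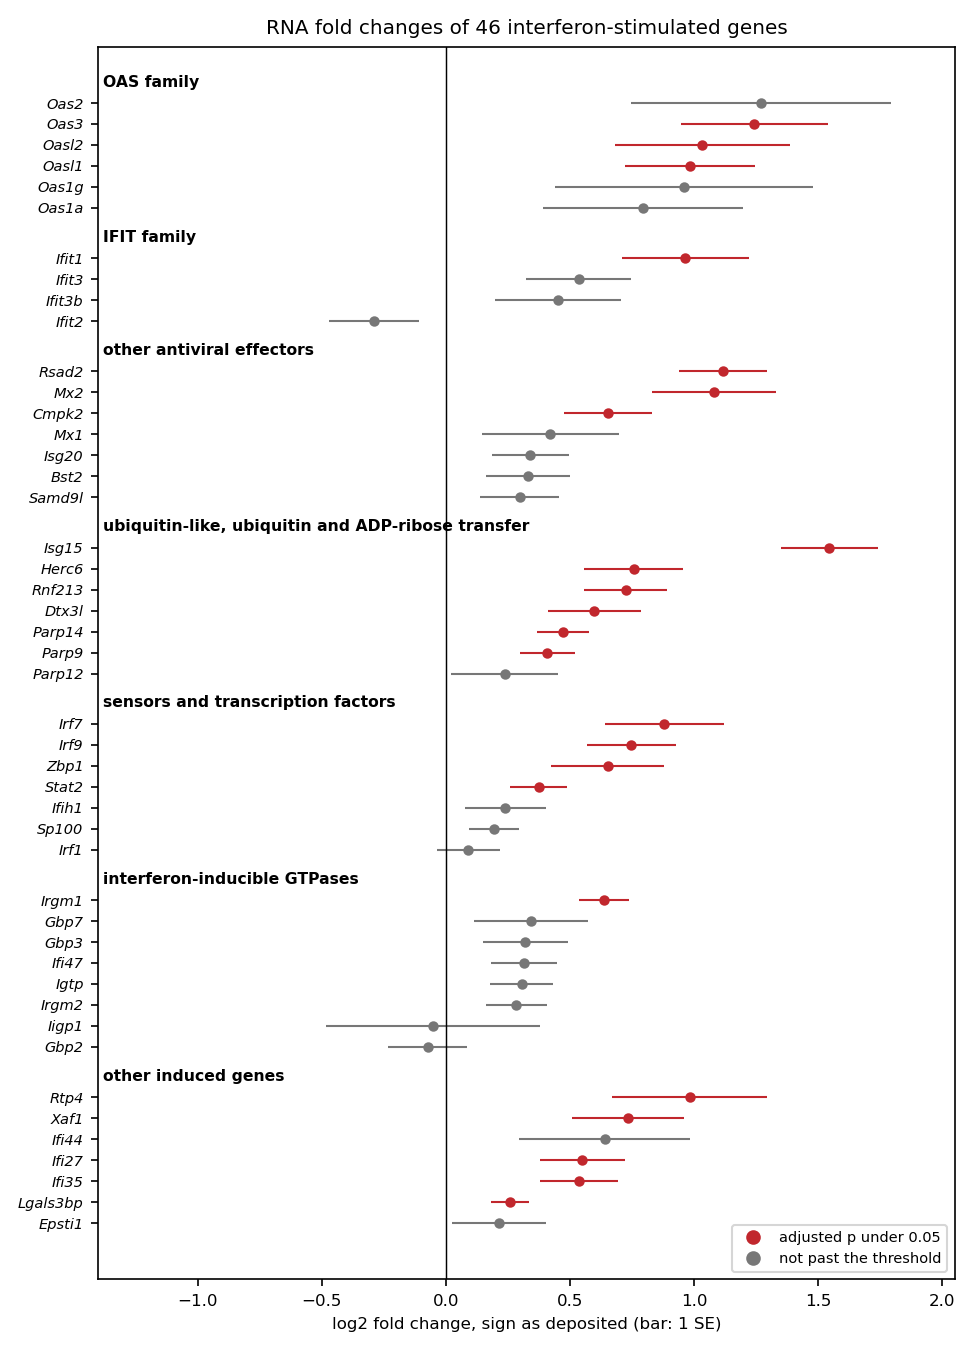
Log2 fold change of each of the 46 members per the authors' deposited table, with its sign as deposited, by role. Points are fold changes, bars 1 SE, and red marks the 23 members with an adjusted p under 0.05, all to the right of 0. The 6 OAS genes lie together at 0.79 to 1.27, and most GTPases lie between 0.28 and 0.34.

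The largest called change of a member was that of Isg15. It encodes a ubiquitin-like protein that is joined to other proteins during an interferon response and is also secreted. The authors' deposited table gave it a fold change of 1.54 ± 0.20 (SE), a 2.92-fold difference between the arms, at a mean count of 2056 (adjusted p = 3.6e-12). Herc6, the ligase that attaches Isg15 in the mouse, had 0.76 ± 0.20 per the authors' deposited table (adjusted p = 0.0038). Outside the module, the same pathway's activating enzyme Uba7 was called with 0.59 ± 0.14 per the authors' deposited table. The conjugating enzyme Ube2l6 was not called there, with 0.13 ± 0.18. Usp18, the protease that removes Isg15 and damps the receptor, was called with 1.06 ± 0.30 per the authors' deposited table (adjusted p = 0.0072). The gene for the tag, those for 2 of its 3 attaching enzymes and that for its protease were called with the same sign. The called genes had mean counts between 640 and 3048, and 6.07% of all tested genes were called positive. These genes were gathered from several lists, and Uba7 and Ube2l6 were named after their values were seen.

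Other genes of ubiquitin and ADP-ribose transfer were also mostly called, 6 of 7 with Isg15 and Herc6 included. Rnf213, a very large ubiquitin ligase that coats bacteria and restricts viruses, had the highest mean count of the module at 12405 and a fold change of 0.73 ± 0.17 per the authors' deposited table (adjusted p = 6.4e-04). Parp14, a mono-ADP-ribosyltransferase, had 0.47 ± 0.11 per the authors' deposited table (adjusted p = 4.3e-04). Parp9 and its partner ligase Dtx3l stood at 0.41 ± 0.11 and 0.60 ± 0.19 per the authors' deposited table, and both were called. Parp12, which blocks translation of viral RNA, was the member of this group that was not called, with 0.24 ± 0.22.

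All 6 genes of the OAS family were positive, and 3 of them were called. OAS enzymes make 2′-5′-linked oligoadenylates on sensing double-stranded RNA, which activates RNase L. Of the mouse OASL proteins, Oasl1 lacks that activity and Oasl2 has it. Oas3 had 1.24 ± 0.30 at a mean count of 1946 per the authors' deposited table (adjusted p = 0.0011). Oasl1, which represses translation of Irf7 in the mouse, had 0.98 ± 0.26, and Oasl2 had 1.03 ± 0.35 per the authors' deposited table (adjusted p = 0.0044 and 0.035). Oas2 had the largest fold change of the family, 1.27, but with an SE of 0.52 it was not called per the authors' deposited table (adjusted p = 0.091). Oas1a and Oas1g, near-identical copies between which reads could be split, stood at 0.79 ± 0.40 and 0.96 ± 0.52 per the authors' deposited table and were not called either. All 6 fold changes lay between 0.79 and 1.27, and their SEs between 0.26 and 0.52. The related Oas1b, outside the module, was called with 0.74 ± 0.23 per the authors' deposited table.

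The IFIT genes, whose proteins bind viral RNA that lacks the host's cap methylation or take part in antiviral signalling, did not share one sign. Ifit1, the cap sensor, was called with 0.97 ± 0.26 at a mean count of 322 per the authors' deposited table (adjusted p = 0.0041). Ifit3 and Ifit3b, near-identical copies, had 0.54 ± 0.21 and 0.45 ± 0.25 per the authors' deposited table and were not called (adjusted p = 0.074 and 0.25). Ifit2, which had the highest mean count of the family at 1152, stood at -0.29 ± 0.18 per the authors' deposited table (adjusted p = 0.32). It was the most negative of all members, and its 95% interval ran between -0.64 and 0.07. Ifit1 and Ifit2 lie in the same gene cluster, and the difference between them was not tested.

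Of the other antiviral effectors, all 7 were positive and 3 were called. Rsad2, known as viperin, converts CTP to a chain terminator of viral RNA synthesis, and had 1.12 ± 0.18 at a mean count of 10390 per the authors' deposited table (adjusted p = 1.1e-07). Cmpk2, a nucleotide kinase gene that lies next to Rsad2, had 0.65 ± 0.18 per the authors' deposited table (adjusted p = 0.0047). Mx2, an Mx dynamin-like GTPase gene, had 1.08 ± 0.25 at a mean count of 148 per the authors' deposited table (adjusted p = 7.4e-04), and its neighbour Mx1 had 0.42 ± 0.28 (adjusted p = 0.34). RefSeq's GRCm38.p6 annotation lists both Mx genes as transcribed pseudogenes. Isg20, an exonuclease of viral RNA, Bst2, which tethers budding virions, and Samd9l, a translation repressor, were not called, with 0.34 ± 0.16, 0.33 ± 0.17 and 0.30 ± 0.16 per the authors' deposited table.

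All 7 sensors and transcription factors of the module were positive, and 4 were called, Irf9, Stat2, Irf7 and Zbp1. Irf9 and Stat2 had fold changes of 0.75 ± 0.18 and 0.37 ± 0.12 per the authors' deposited table (adjusted p = 0.0013 and 0.017). Irf7, which drives transcription of interferon alpha genes, had 0.88 ± 0.24 at a mean count of 2752 per the authors' deposited table (adjusted p = 0.0052). Irf1, a target of interferon gamma, had 0.09 ± 0.13 per the authors' deposited table, with a 95% interval of -0.16 to 0.34. Zbp1, a sensor of left-handed nucleic acid that starts cell death, had the adjusted p nearest below the threshold, 0.039, with 0.65 ± 0.23 per the authors' deposited table. Ifih1, the sensor of long double-stranded RNA also called MDA5, and Sp100, a nuclear body protein, were not called, with 0.24 ± 0.16 and 0.19 ± 0.10 per the authors' deposited table.

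The interferon-inducible GTPases had a lower median than the module as a whole, and 1 of 8 was called. These proteins act on the vacuoles of intracellular bacteria and parasites and are strongly induced by interferon gamma. Irgm1, which regulates the other IRG proteins, had 0.64 ± 0.10 at a mean count of 1716 per the authors' deposited table, the second smallest p of the module (adjusted p = 6.0e-08). Igtp, Irgm2 and Ifi47 had 0.31 ± 0.13, 0.28 ± 0.12 and 0.32 ± 0.13 per the authors' deposited table, with adjusted p between 0.091 and 0.11. Gbp3 and Gbp7 had 0.32 ± 0.17 and 0.34 ± 0.23 per the authors' deposited table and were not called. Gbp2 stood at -0.07 ± 0.16 (95% interval -0.38 to 0.24) and Iigp1 at -0.05 ± 0.43 per the authors' deposited table. The median of the 8 was 0.31, against 1.01 for the OAS family and 0.60 for the ubiquitin and ADP-ribose group. It was 0.55 for the remaining induced genes. Medians of the sensors and transcription factors (0.37), other antiviral effectors (0.42) and IFIT family (0.49) also lay below the module's 0.54. Differences between groups of genes were not tested. Among 5 guanylate-binding genes outside the module, Gbp6 was called with a negative sign, -0.28 ± 0.10 per the authors' deposited table (adjusted p = 0.042), and Gbp4 had -0.27 ± 0.11 (adjusted p = 0.081). Gbp5, Gbp9 and Gbp8 had 0.12 ± 0.13, 0.17 ± 0.18 and -0.04 ± 0.24 per the authors' deposited table and were not called.

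Of the remaining induced genes, 5 of 7 were called. Rtp4, which in the mouse dampens the interferon response through Tbk1, had 0.98 ± 0.31, and Xaf1, which promotes cell death, had 0.74 ± 0.23 per the authors' deposited table (adjusted p = 0.020 and 0.016). Ifi27 and Ifi35 had 0.55 ± 0.17 and 0.54 ± 0.16 per the authors' deposited table. Lgals3bp, a secreted glycoprotein that binds galectins, had the smallest called change of the module, 0.26 ± 0.08, which it passed with the module's smallest SE per the authors' deposited table (adjusted p = 0.012). Ifi44, at the lowest mean count of 82.9, and Epsti1 were not called, with 0.64 ± 0.35 and 0.22 ± 0.19 per the authors' deposited table.

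**Figure D2:**
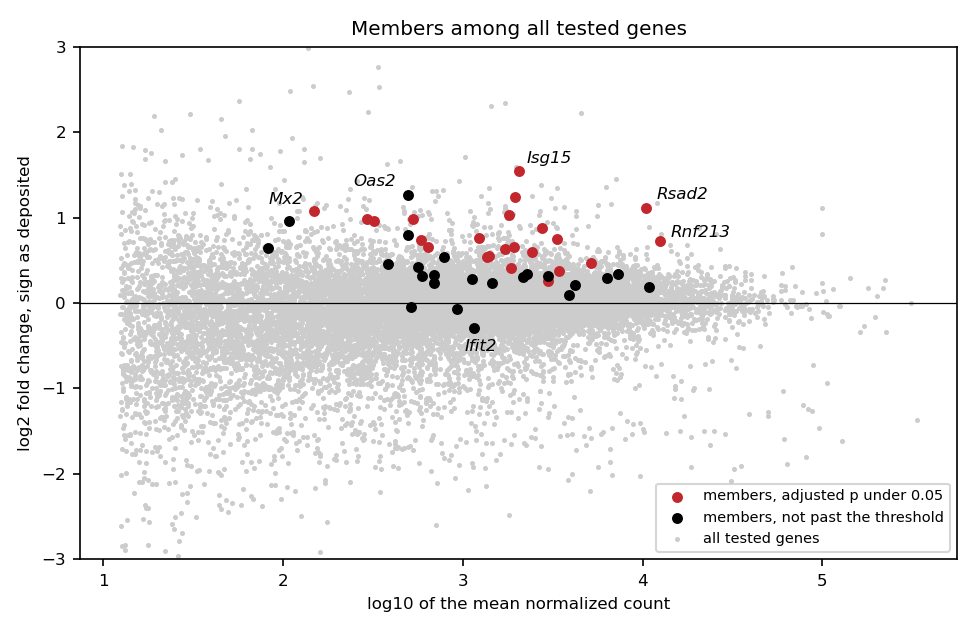
Log2 fold change, with its sign as deposited, against log10 of the mean normalized count for tested genes per the authors' deposited table (grey), members that were called (red) and members that were not (black). The vertical axis ends at 3 on either side, and 21 tested genes lie outside it. Called members span mean counts between 148 (Mx2) and 12405 (Rnf213), so they are not a group of weakly expressed genes.

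Interferon genes themselves were hardly measured. Of 21 interferon genes of types I, II and III, 14 had a mean count of 0 per the authors' deposited table. The other 7, among them Ifnb1 and Ifng, had means between 0.405 and 4.47 counts and no adjusted p there, so no difference could be detected at this depth. Of 9 receptors and kinases, 1 was called per the authors' deposited table, against 12.2% of tested genes called in either direction. That was the interferon gamma receptor chain Ifngr1, with -0.20 ± 0.07. Their median was -0.05, and the type I receptor chains Ifnar1 and Ifnar2 had 0.13 ± 0.07 and 0.02 ± 0.10 per the authors' deposited table.

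The sign was positive for 5 of 5 tested STATs and IRFs outside the module, 9 of 14 genes of nucleic acid sensing and 11 of 13 negative regulators per the authors' deposited table, against 46.7% of all tested genes. Counts of calls in these lists stand beside 12.2% of all tested genes called in either direction, 6.07% positive and 6.11% negative. Of the 5 STATs and IRFs, 2 were called per the authors' deposited table, Irf5 with 0.36 ± 0.09 and Irf3 with 0.28 ± 0.09, both transcription factors that act below nucleic acid sensors. Of the 14 genes of nucleic acid sensing, 2 were called, both positive, a share near the 12.2% of all tested genes called in either direction. These were Tlr9, a receptor for DNA in endosomes, with 0.59 ± 0.15, and its chaperone Unc93b1 with 0.37 ± 0.06 per the authors' deposited table. Ddx58, the sensor RIG-I, had 0.25 ± 0.10 per the authors' deposited table and was not called (adjusted p = 0.095). Of the 13 negative regulators, 3 were called positive and 1 negative per the authors' deposited table. Besides Usp18, the positive ones were Adar, which edits double-stranded RNA and so hides it from sensors, with 0.54 ± 0.14, and Socs1, an inhibitor of Jak kinases, with 0.93 ± 0.33 at a mean count of 89.1. The negative one was Socs3, an inhibitor mainly of interleukin-6 family signals, with -0.52 ± 0.13 per the authors' deposited table (adjusted p = 0.0031).

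Among 55 tested induced genes outside the module, 15 were called positive and 1, Gbp6, negative per the authors' deposited table, and 47 had a positive sign. Over all tested genes, 6.07% were called positive and 6.11% negative, and 46.7% had a positive sign. This list, like the module, was chosen with earlier results of these data known. The median of the 55 genes was 0.23, lower than the module's 0.54. Helz2, a helicase, had 0.61 ± 0.08, and Trim25, a ubiquitin ligase that acts with RIG-I, had 0.60 ± 0.12 per the authors' deposited table (adjusted p = 1.7e-10 and 9.9e-05). Trim34a had 0.66 ± 0.11 and Ifi209, a member of the HIN-200 family, 0.87 ± 0.16 per the authors' deposited table. Nlrc5 and Pml were among the others called positive, with 0.42 ± 0.10 and 0.46 ± 0.11 per the authors' deposited table. The cytokine-induced chemokines Cxcl9 and Cxcl10 were not called, with -0.15 ± 0.37 and 0.60 ± 0.49 per the authors' deposited table. The mean count of Cxcl10 was 34.6.

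**Figure D3:**
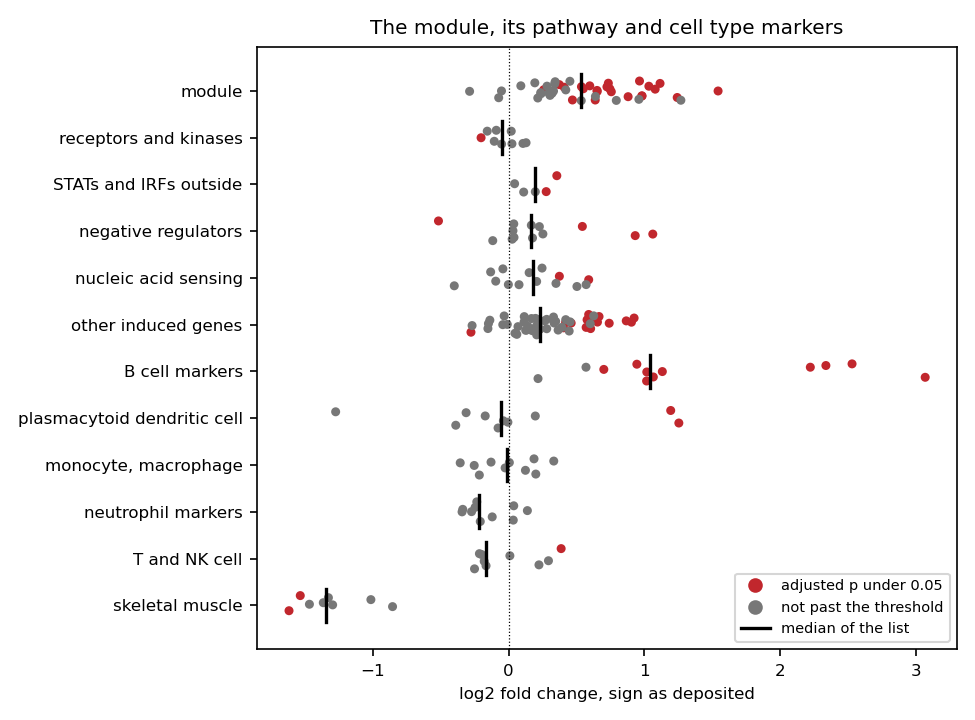
Log2 fold changes, with their sign as deposited, of tested genes in the module (46), in lists of its pathway and in lists of cell type markers per the authors' deposited table. Each point is a gene, red where its adjusted p was under 0.05, and the black line is the list's median, 0.54 for the module and 1.04 for B cell markers.

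B cell markers had the same sign as most of the module. Calls in the marker lists stand beside 12.2% of all tested genes called in either direction, 6.07% positive and 6.11% negative. In a list of about 10 genes, no call or 1 or 2 calls are not far from that share. Of 12, 10 were called per the authors' deposited table, all 12 were positive, and their median was 1.04, larger than that of the module. Values ran from 0.22 ± 0.27 for Cd22 to 3.07 ± 0.51 for Igll1. Cd22 and Ms4a1, with 0.57 ± 0.29, were not called per the authors' deposited table. The part of the B cell markers in the module's change was not tested. Plasmacytoid dendritic cells are a main source of interferon alpha during viral infection. Of their 10 markers, 2 were called positive per the authors' deposited table, Ly6d with 1.20 ± 0.22 and Spib with 1.26 ± 0.29, and both genes are also expressed in B lineage cells. Irf8 was also positive, with 0.20 ± 0.10 per the authors' deposited table, and was not called. The other 7 plasmacytoid markers were negative and not called, among them Siglech with -0.31 ± 0.27 and Ccr9 with -0.17 ± 0.23. The most negative was Cox6a2, with -1.27 ± 0.57. Runx2, with -0.04 ± 0.27, was also in the list of bone markers. The median of the plasmacytoid list was -0.06. None of 10 monocyte and macrophage markers and none of 10 neutrophil markers was called per the authors' deposited table, with medians of -0.01 and -0.22. Among 9 tested T and NK cell markers only Lck was called, with 0.39 ± 0.13 per the authors' deposited table. Of 8 endothelial markers, 7 were negative, with a median of -0.34, and 1 was called positive and 1 negative per the authors' deposited table. Of 12 bone markers, 8 were negative, with a median of -0.17, and 2 were called positive and 1 negative by the same table. All 8 skeletal muscle markers were negative, with a median of -1.35, and 2 were called per the authors' deposited table. No marker of these lists that the table holds had a mean count of 0. The part of these cell types in the module's values was not tested.

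Many members lie in gene clusters, in which all, some or none of the genes were called. Over the whole module 50% of members were called, and differences between clusters were not tested. By the order of genes in RefSeq's GRCm38.p6 annotation, 22 members fell into 9 clusters, in which no more than 2 other protein-coding genes separated one member from the next, and 24 stood alone. By the authors' deposited table, all 3 genes of the cluster of Parp14, Dtx3l and Parp9 were called, as were both Rsad2 and Cmpk2 and both Oasl1 and Oasl2. None of the cluster of Gbp7, Gbp3 and Gbp2 was called, nor Igtp and Irgm2, nor Oas1g and Oas1a. Of Oas2 and Oas3, and of Mx1 and Mx2, 1 gene each was called. The cluster of Ifit2, Ifit3, Ifit3b and Ifit1 held both a called positive gene and the most negative member. Where genes overlap or lie on opposite strands, reads can be assigned to either, and how the authors counted strand is not given in the sources used here, although the kit keeps it.

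Promoters of the members often held the letters of an ISRE. The letters searched were GAAANNGAAA on either strand, which reads TTTCNNTTTC on the other, in windows that run from 250 bases before to 50 after the annotated start (RefSeq, GRCm38.p6). Of the 37 members with a window, 17 (45.9%) held them, against 3.91% of 12029 tested genes and 3.44% of all 32851 windows. Iigp1, Ifi27, Mx1, Mx2, Oas2, Parp9, Parp14, Rtp4 and Zbp1 had no window. The sequences below are the parts of these windows around the match in the 6 called members that hold it, and in Gbp2, which holds it and was not called. Capitals mark the matching letters.
Isg15 (chr4:156200840-156200931, minus strand): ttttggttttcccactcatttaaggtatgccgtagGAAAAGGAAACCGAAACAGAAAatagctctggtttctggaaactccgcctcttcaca
Rsad2 (chr12:26456528-26456607, minus strand): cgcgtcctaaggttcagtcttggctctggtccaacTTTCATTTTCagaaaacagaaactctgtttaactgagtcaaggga
Oas3 (chr5:120777690-120777769, minus strand): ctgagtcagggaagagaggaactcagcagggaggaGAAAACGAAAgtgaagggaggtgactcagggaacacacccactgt
Ifit1 (chr19:34640750-34640848, plus strand): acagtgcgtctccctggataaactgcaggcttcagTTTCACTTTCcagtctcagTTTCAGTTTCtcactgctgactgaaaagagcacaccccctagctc
Irgm1 (chr11:48871400-48871485, minus strand): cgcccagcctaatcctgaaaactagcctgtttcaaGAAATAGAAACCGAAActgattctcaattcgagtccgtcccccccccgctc
Stat2 (chr10:128270248-128270320, plus strand): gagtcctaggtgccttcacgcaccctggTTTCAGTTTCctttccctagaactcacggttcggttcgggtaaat
Gbp2 (chr3:142620569-142620648, plus strand): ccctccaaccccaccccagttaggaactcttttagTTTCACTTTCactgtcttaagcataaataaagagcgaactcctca

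The match is longest in Isg15, where 3 copies overlap and begin between 78 and 66 bases before the start. Ifit1 holds 2 separate copies, Irgm1 holds 2 that overlap, and Oas3 and Rsad2 hold 1 each, at 75 and 120 bases before the start. Whether members with the letters differ in fold change from those without was not tested. The 9 members with no window are in neither group, and a window without these exact letters is not shown to lack an ISRE. The 17 members with them had a median fold change of 0.45 and 6 calls, and the 20 without had a median of 0.57 and 11 calls, Irf7, Irf9 and Oasl2 among them. Over all tested genes with a window, 42 of 470 with the letters were called positive (8.94%), 6 of these being members, against 712 of 11559 without (6.16%). The GAS letters TTCNNNGAA, which read the same on both strands, were in the windows of 9 of the 37 members (24.3%), against 8.43% of tested genes. Of these 9 members 1 was called, Ifi35, and their median fold change was 0.33. The letters of both elements overlapped in 1 member window. A match is a string of letters and not a shown site of binding.

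Of the 46 members, 29 (63.0%) carried at least 1 m6A peak, against 44.3% of all tested genes and 50.5% of those with mean counts in the members' range. Within that range the sets were not matched, as the median mean count was 1422 for the members and 1123 for all genes in it. Peak positions are given as deposited, counted from 1, and all 68 overlapped the gene of that name on GRCm38.p6. Of the 29 genes, 13 had 1 peak (44.8%) and 16 had more, while 53.8% of all genes with a peak had 1. Rnf213 had 9 peaks and Samd9l 7 per the authors' deposited table, and 70 genes of the series had more peaks than Samd9l. Peaks were present for 14 of the 23 members called in RNA and for 15 of the 23 others. Among members with no peak were Isg15 and Irf7, and also Rsad2, whose mean count of 10390 exceeds that of 94.8% of tested genes. Of the 793 tested genes with a mean at least as high as Rsad2, 73.0% had a peak. These 3 genes were singled out after their values were seen.

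The members' peaks had high enrichment for this series. The median fold enrichment of IP over input was 2.11 over the 68 peaks, against 1.82 over all 13083 per the authors' deposited table. An enrichment of at least 2 was reached by 41 of 68 peaks (60.3%, exact 95% interval 47.7 to 72.0), against 37.3% of all peaks. Peaks of 1 gene share their RNA, so the interval covers counting error only. Without Samd9l and Rnf213, which gave 16 of the peaks, 32 of 52 reached it (61.5%). Of the member peaks 20.6% ran over several exon blocks, against 40.1% of all peaks. Among single-block peaks, 61.1% of the members' and 38.2% of all reached an enrichment of 2 per the authors' deposited table.

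Enrichment varied with role, and differences between roles were not tested. The 12 peaks of GTPase genes had a median of 2.54, with 10 at 2 or more, and the 19 peaks of ubiquitin and ADP-ribose genes had a median of 1.86, with 6 at 2 or more per the authors' deposited table. The highest values stood in Iigp1 with 3.97 and in Samd9l with 3.60 (chromosome 6, 3374000 to 3374399) per the authors' deposited table. All 7 Samd9l peaks lay between 2.07 and 3.60, the second highest at 3.10 (chromosome 6, 3374697 to 3374797). Ifit2 held a peak of 3.23 (chromosome 19, 34573745 to 34573994) beside 4 others, the lowest at 1.15, per the authors' deposited table. Cmpk2 had a single peak of 3.16 (chromosome 12, 26478193 to 26478592), and Ifit3 a peak of 3.13 (chromosome 19, 34587135 to 34587235) per the authors' deposited table. The 2 Irgm2 peaks had 2.74 and 2.80, and the 3 Gbp7 peaks lay between 2.27 and 2.78 per the authors' deposited table, so the GTPase genes' peaks stood above the median of all peaks, apart from those of Igtp (1.72) and Irgm1. In the cluster of Parp14 and Dtx3l, the 4 Parp14 peaks ran from 1.81 to 2.84 and the 4 Dtx3l peaks from 1.19 to 1.97 per the authors' deposited table. The 9 Rnf213 peaks had a median of 1.86, and Xaf1, Irgm1 and Oas3 had 1 peak each, at 1.41, 1.33 and 1.67 per the authors' deposited table.

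**Figure D4:**
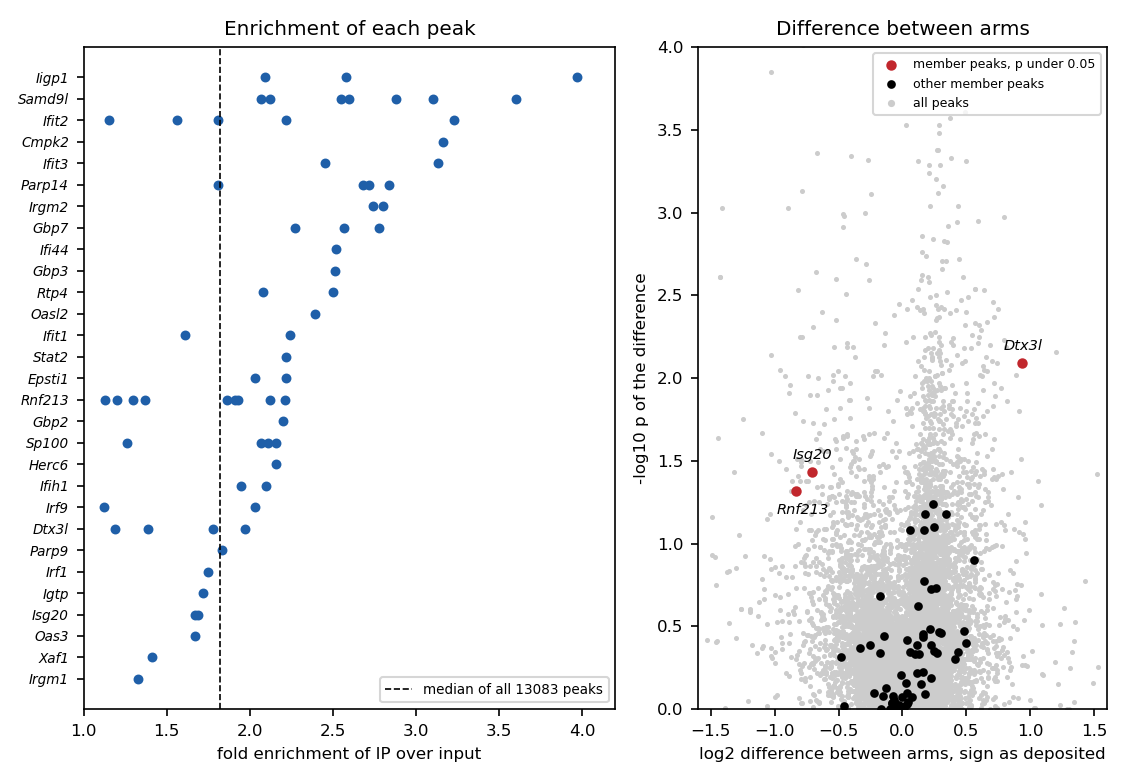
Left, fold enrichment of IP over input of each of the 68 member peaks, by gene, with the median of all 13083 peaks (1.82) as a dashed line. Right, the log2 difference between arms in enrichment, sign as deposited, against -log10 of its p per the authors' deposited table, for all peaks (grey) and member peaks (black, and red for the 3 with p under 0.05). The right panel leaves out 19 peaks that lie beyond its axes.

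No more member peaks differed between the arms than the share over all peaks. A difference p under 0.05 was given to 3 of 68 peaks (4.41%) per the authors' deposited table, against 4.92% of all peaks. Of these 1 was positive, against 3.6% of all peaks, and 2 were negative, against 1.32%. A peak in Dtx3l (chromosome 16, 35932840 to 35932940) had a log2 difference of 0.94 (p = 0.0081), with the other Dtx3l peaks at -0.09, 0.12 and 0.56 per the authors' deposited table. The second Isg20 peak (chromosome 7, 78920150 to 78920298) had -0.71 (p = 0.037), while the first had 0.18 per the authors' deposited table. One of the 9 Rnf213 peaks (chromosome 11, 119486321 to 119486471) had -0.835 (p = 0.048), and the others lay between -0.48 and 0.26 per the authors' deposited table. None of these 3 peaks had an FDR under 0.05 per the authors' deposited table, which gave 0.670, 0.947 and 0.998, and 0.0229% of all peaks had one. The sign was positive for 40 of 68 member peaks (58.8%), against 60.6% of all peaks, and the median difference was 0.05 in both sets.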

How the data were processed

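RNA and m6A were profiled in bone of ovariectomised and sham-operated mice, with 4 input and 4 IP libraries in each arm. Per the submitters' processing notes, the tools were HISAT2, StringTie and DESeq and the build rn6, a rat build, with no versions or roles, while 13000 of 13026 peaks with a RefSeq symbol (99.8%) overlapped the mouse gene of that name on GRCm38.p6. Per the labels' protocols, the kit was stranded and used molecular identifiers. The RNA table's columns are, per the file headers, the authors' mean normalized count (a signal over libraries), log2 fold change, its SE, Wald score, p-value and adjusted p-value. For each peak the authors deposited a p-value and its log10 against input, a fold enrichment (the ratio of IP to input), a log2 difference between arms, and a score that is the log10 of that difference's p or FDR. The peak caller, and any pooling of replicates, were not named in those sources.

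Here the Wald statistic was checked against the ratio of fold change to SE, and the adjusted p against Benjamini-Hochberg values over 15396 genes; the lowest mean among these was 12.4. Members were selected by symbol, summarised by role and set beside all tested genes. Members and lists were chosen with earlier results of these data known. All members are named by role. One gene was left out of the pathway lists and is not reported here. From pathway lists up to 4 called genes were named by smallest p, with others named after their values were seen. Of the peaks, those with a difference p under 0.05 and those of highest enrichment were named. The count model, the left-out replicates and the replicate block planned for values per library could not be run. Intervals of fold changes are 1.96 SE on either side, shares have exact (Clopper-Pearson) 95% intervals, and depth of single libraries is unknown. The motif search and the adjustment were tested on simulated data. Python 3.11.15 was used, with numpy 2.4.6, pandas 2.3.3, scipy 1.17.1 and matplotlib 3.10.9.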

Additional observations from a re-analysis of the deposited data

How the results depend on the processing

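The 23 calls among the members became 14 at an adjusted p under 0.01. They stayed within 1.5 times of 23 under the other settings tried. There were 27 with an adjusted p under 0.1 and 19 with a log2 fold change of at least 0.5. Leaving out Oas1a, Oas1g, Ifit3, Ifit3b, Irgm2, Mx1 and Mx2, treated as near-identical copies, gave 22, with Mx2 the call lost. With Benjamini-Hochberg adjustment over the 19015 genes with a p, or over the 13701 with a mean count of at least 50, or after recentring on the median of all tested genes (-0.02), 23 were called. Each of the 46 members kept its side of the threshold under these 3 settings. Recentring was added after the data were seen. The median fold change of 0.54 lay between 0.44, as a mean weighted by 1 over the squared SE, and 0.56. The 3 differing peaks by the authors' deposited p became 1 at p under 0.01, and 0 at an FDR under 0.05 or among peaks with an enrichment of at least 2. These settings are stricter by construction. The median enrichment of 2.105 became 2.22 with the 1 peak of smallest p against input in each gene, a choice among more peaks where a gene has several, and 2.20 with peaks of smaller p against input. Members with a peak were 29, and 21 at an enrichment of at least 2. No paired analysis was possible because the tables hold no value of a single library, and for the same reason no replicate could be left out. Neither table states which arm is the numerator, so no sign can be read as an effect of ovariectomy.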
